A study of Mus musculus with 2 samples.

Results

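The 8 genes described here encode the class II transactivator CIITA and the proteins that hold it on the promoters of major histocompatibility complex (MHC) class II genes. They are Ciita, the RFX subunit genes Rfx5, Rfxank and Rfxap, the NF-Y subunit genes Nfya, Nfyb and Nfyc, and Creb1. They were taken as every probe set whose annotation names one of these 8 genes and no other, which gave 21 of the 45037 probe sets that are not controls. All 8 genes were represented among the 18193 genes on the array. RNA from a pair of primary mouse cultures of the retinal pigment epithelium (RPE), a pigmented layer that supports the photoreceptors, was hybridised to 1 oligonucleotide array each. The RPE with IFNg culture had received interferon gamma, a cytokine released by lymphocytes, for 24 h at 100 U/ml. The untreated RPE culture had not. Both were grown for 14 days in medium with 20% serum and moved to serum-free medium overnight before RNA was taken, and the labels describe 95% of the cells as cytokeratin-positive. The labels give no strain, age or number of animals for either culture.

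With 1 array per group there was no replicate and no p-value. Higher and lower therefore describe these 2 arrays, whose small number limits precision. Signals are intensities without a unit. A signal under the pooled median of all probe sets, 20.4, was set to that floor before log2 was taken, so a ratio is a bound when either array sat there. A gene was counted as measured when at least 1 array exceeded the floor. Every ratio is IFNg over untreated, and its median over the 12743 measured genes was -0.12 on the log2 scale. The only spread the design gives is between probe sets of the same gene. Its SD in log2 ratio was 0.56 for dim probe sets, whose mean signal lay between the floor and the 75th percentile, and 0.33 for brighter ones. The brightest probe set of a gene is the one with the highest mean log2 signal after the floor. In a culture, fewer cells of a type and less RNA per cell cannot be told apart.

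Class II promoters carry a conserved pair of elements, the X box and the Y box, at a fixed spacing. RFX binds the X box, CREB1 binds the adjoining X2 element, and NF-Y, a trimer, binds the CCAAT sequence of the Y box. CIITA does not itself bind DNA but docks on these proteins and recruits histone-modifying enzymes and the transcription machinery. RFX, NF-Y and CREB1 are made in most cell types, whereas CIITA is constitutive in professional antigen-presenting cells and induced by IFNg elsewhere, which is why it is regarded as the limiting component.

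The promoter stretches of class II genes show the elements on which the 8 proteins assemble. They come from RefSeq windows of build GRCm38.p6, each running from 250 bases before to 50 bases after a start site, and 8 of the 10 listed class II genes had a window. Letters were searched on both strands: CCAAT for the Y box core, GCAAC or AACNNATG for the X box core, and TGACGTCA for the cyclic AMP response element (CRE) that CREB1 binds. The 2 forms of the X box core overlap by 3 bases where both occur. Both forms, and the spacing of 15 to 40 bases between X and Y cores, were chosen after these windows were read. An X box core that far before ATTGG on the gene's strand stood in 7 of the 8 class II genes with a window, in H2-DMb1 as in those printed, and in 0.718% of all 32851 windows. The 7 spacings lay between 30 and 33 bases, counted from the first base of one core to the first base of the other. H2-DMa had no such pair in either of its windows. Capitals in the stretches mark the X box core, the Y box core and, in H2-Aa, the CRE.
H2-Aa: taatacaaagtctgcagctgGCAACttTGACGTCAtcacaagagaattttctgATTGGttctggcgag
H2-Eb1: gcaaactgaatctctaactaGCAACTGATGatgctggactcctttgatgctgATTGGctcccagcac
H2-DMb2: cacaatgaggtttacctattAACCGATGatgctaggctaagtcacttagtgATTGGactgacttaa
H2-Ob: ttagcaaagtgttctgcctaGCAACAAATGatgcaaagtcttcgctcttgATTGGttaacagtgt
H2-Eb2: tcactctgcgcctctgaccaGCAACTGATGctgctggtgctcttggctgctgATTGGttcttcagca
H2-Oa: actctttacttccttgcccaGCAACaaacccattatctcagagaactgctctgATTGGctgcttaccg
The H2-Aa stretch lies at chr17:34287857-34287924 on the minus strand. The others lie on the plus strand, H2-Eb1 at chr17:34305756-34305822, H2-DMb2 at chr17:34145108-34145173, H2-Ob at chr17:34238798-34238862, H2-Eb2 at chr17:34325523-34325589 and H2-Oa at chr17:34092283-34092350. The complete CRE of H2-Aa follows its X box core closely, and these letters occur in 1.79% of all windows. The longer Y box CTGATTGG, which contains the Y box core read on the other strand, stood in H2-Aa, H2-Eb1, H2-Eb2 and H2-Oa, and in 4.1% of all windows. A match is a description of these letters and not a measured binding site.

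Of the 8 member genes, 6 had a window of their own (Ciita and Rfxap did not), and their own promoters were searched in the same way. The Y box core, which 37.4% of all windows hold, occurred 2 times in Rfx5, 2 times in Rfxank, 5 times at the second of 3 Nfyc starts, 3 times at the third and 1 time at the third of 3 Nfya starts. X box cores occurred 2 times in Rfx5, 1 time at the first Nfyc start and 1 time at the third. No member window held an X box core and a Y box core paired as in the class II genes. No member window held TGACGTCA or the core of the interferon-stimulated response element, which occurs in 3.44% of all windows. Nfyb and Creb1, the genes with the highest measured ratios below, also had no match to CCAAT or to either X box core. The same was true at the first and second of the 3 Nfya starts. The log2 ratio of Nfya was 0.07 by its brightest probe set, so this absence is not particular to genes with high ratios. No match says only that the letters are not in this window. The 200 bases before the starts of Nfyb (chr10:82764142-82764341, minus strand) and Rfx5 (chr3:94953908-94954107, plus strand) are shown as the contrast between a window without and one with Y box cores, and the bases before the second Nfyc start (chr4:120825215-120825323, minus strand) hold 3 Y box cores. Capitals mark the Y box cores and, just before the second of them in Rfx5, an X box core.
Nfyb: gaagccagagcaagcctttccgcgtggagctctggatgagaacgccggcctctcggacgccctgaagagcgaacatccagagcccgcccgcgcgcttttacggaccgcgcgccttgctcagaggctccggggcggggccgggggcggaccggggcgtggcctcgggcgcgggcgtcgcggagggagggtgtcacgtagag
Rfx5: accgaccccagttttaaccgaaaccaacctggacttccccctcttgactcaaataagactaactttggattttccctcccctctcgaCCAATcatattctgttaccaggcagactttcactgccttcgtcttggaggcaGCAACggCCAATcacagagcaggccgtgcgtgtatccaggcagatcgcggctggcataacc
Nfyc: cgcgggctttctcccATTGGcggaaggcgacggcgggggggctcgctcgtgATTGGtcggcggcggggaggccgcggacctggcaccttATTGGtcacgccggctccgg

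**Figure D1:**
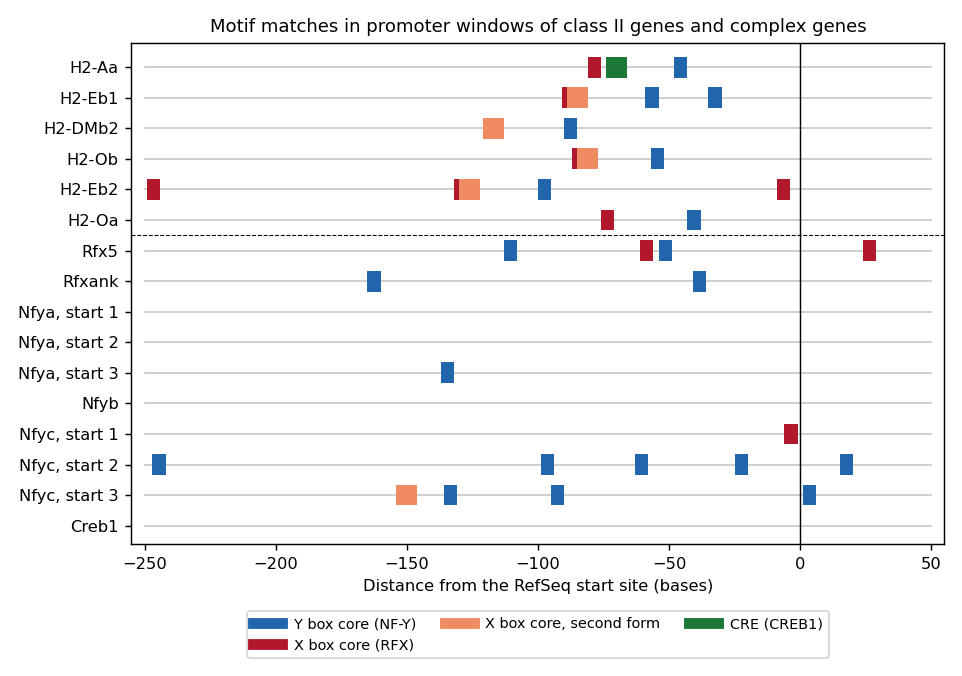
Positions of motif matches in RefSeq promoter windows, with distance from the start site in bases on the x axis, 6 class II genes above the dashed line and the complex genes with a window below it. An X box core and a Y box core lie 30 to 33 bases apart in the 6 class II windows. The windows of Nfyb, of Creb1 and of the first and second Nfya starts hold none of the 4 motifs drawn.

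CIITA is a member of the NLR family and carries the activating function of the complex. Its brightest probe set, 1421210_at, had a signal of 48.2 with IFNg and 2.5 untreated. The untreated value was under the floor, so Ciita was at least 2.36-fold higher with IFNg (log2 ratio at least 1.24). The other 2 Ciita probe sets were under the floor on both arrays. Probe set 1421211_a_at, drawn from the same sequence record, gave 6.3 with IFNg and 3.1 untreated, and 1447075_at gave 1.2 with IFNg and 3.1 untreated. Ciita thus rests on 1 of 3 probe sets, whose IFNg signal is dim. The size of its bound follows from the floor: at the pooled 25th percentile it was a log2 ratio of at least 3.05, with a pseudocount of 16 in place of a floor the log2 ratio was 1.79, and at the pooled 75th percentile neither array exceeded the floor. Averaging all 3 probe sets gave 0.41, a value that also follows from the floor. It averages the bound of 1.24 with the other 2 probe sets counted as 0, and so is not a measured smaller difference. Among all genes measured, 5.59% had a higher ratio than the bound of 1.24. Of 999 further genes that were at the floor untreated and above it with IFNg, those nearest to Ciita in the bound on the log2 ratio were Gcfc2 (at least 1.24), Cfap57 (at least 1.25) and Rassf4 (at least 1.25). With the untreated array at the floor, this likeness is only that of the IFNg signals, which were 48.1 for Gcfc2, 48.4 for Cfap57 and 48.5 for Rassf4.

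The RFX subunits lay within 2-fold. Rfx5, the DNA-binding subunit, had signals of 253.4 with IFNg and 215 untreated in its only probe set (log2 ratio 0.24). Rfxap, the associated protein that completes the trimer, had 108.1 with IFNg and 142.8 untreated in its brighter probe set (log2 ratio -0.40). Its dimmer one had 41.8 with IFNg and 39.2 untreated (0.09), so the 2 differed in sign. Rfxank, the ankyrin-repeat subunit on which CIITA recruitment depends, was lower with IFNg in all 3 of its probe sets. Its brightest, 1419310_s_at, had 51.1 with IFNg and 70.7 untreated (log2 ratio -0.47). Another, 1455371_at, had 36.2 with IFNg and 68.2 untreated (-0.91), and 1425670_at had 15.9 with IFNg and 37.7 untreated, with the IFNg signal under the floor (at least 1.85-fold lower). The brightest Rfxank probe set has an ID that marks sequence shared with other transcripts, and without it the gene's value was -0.91. None of the 6 RFX probe sets passed 2-fold.

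The NF-Y subunits differed among themselves. NF-YB and NF-YC pair through histone folds, and NF-YA joins the pair to read the CCAAT sequence. Nfyb was 2.91-fold higher with IFNg, at 242.9 with IFNg and 83.4 untreated (log2 ratio 1.54). Its second probe set had 144 with IFNg and 50 untreated and gave 2.88-fold (1.53). Both were drawn from 1 sequence record and so are not independent. The log2 ratio of Nfyb lay between 1.38 and 1.60 under 10 processing settings, the reported one included, past 2-fold in each. Of these, the lower floor and the omission of shared-sequence probe sets could not change its value. Leaving out the rescaling could hardly move it, because the trimmed means of the arrays were nearly equal. Among all genes measured, 2.88% had a higher ratio. Nfyc had 202.6 with IFNg and 267.3 untreated in its only probe set (log2 ratio -0.40). Nfya had 82.9 with IFNg and 79 untreated in its brightest probe set, a log2 ratio of 0.07 that turned to -0.01 with a common 75th percentile and to -0.02 with quantile normalization. The 2 dimmer Nfya probe sets were under the floor with IFNg. One, 1422082_a_at, had 7.5 with IFNg and 42.4 untreated and was at least 2.08-fold lower. The other, 1427808_at, had 7.2 with IFNg and 27 untreated and was at least 1.32-fold lower. Nfyb was thus the only NF-Y gene past 2-fold by its brightest probe set, and the Nfya probe sets gave unlike ratios.

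CREB1, the cyclic AMP response factor that sits beside RFX on the X2 element, was the member with the most probe sets, 6, and with the widest spread among them. Its brightest, 1452901_at, had 109.8 with IFNg and 34.9 untreated and was 3.15-fold higher (log2 ratio 1.65). Probe set 1428755_at, drawn from the same sequence record, had 65.5 with IFNg and 47.8 untreated (0.45). Of the rest, 1423402_at had 56.7 with IFNg and 37.3 untreated (0.60), 1452529_a_at had 34.4 with IFNg and 41.9 untreated (-0.28), and 1421582_a_at had 21.7 with IFNg and 1.6 untreated, just over the floor with IFNg (at least 0.09). The last, 1421583_at, was under the floor on both arrays, at 4.5 with IFNg and 0.2 untreated. Deposited signals were thus higher with IFNg in 5 of the 6, and 1 passed 2-fold. The 4 probe sets above the floor on both arrays had an SD of 0.80 in log2 ratio, against 0.56 for dim probe sets in general. With all 6 averaged, the Creb1 log2 ratio was 0.42, and with the floor raised to the 75th percentile it was at least 0.34.

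**Figure D2:**
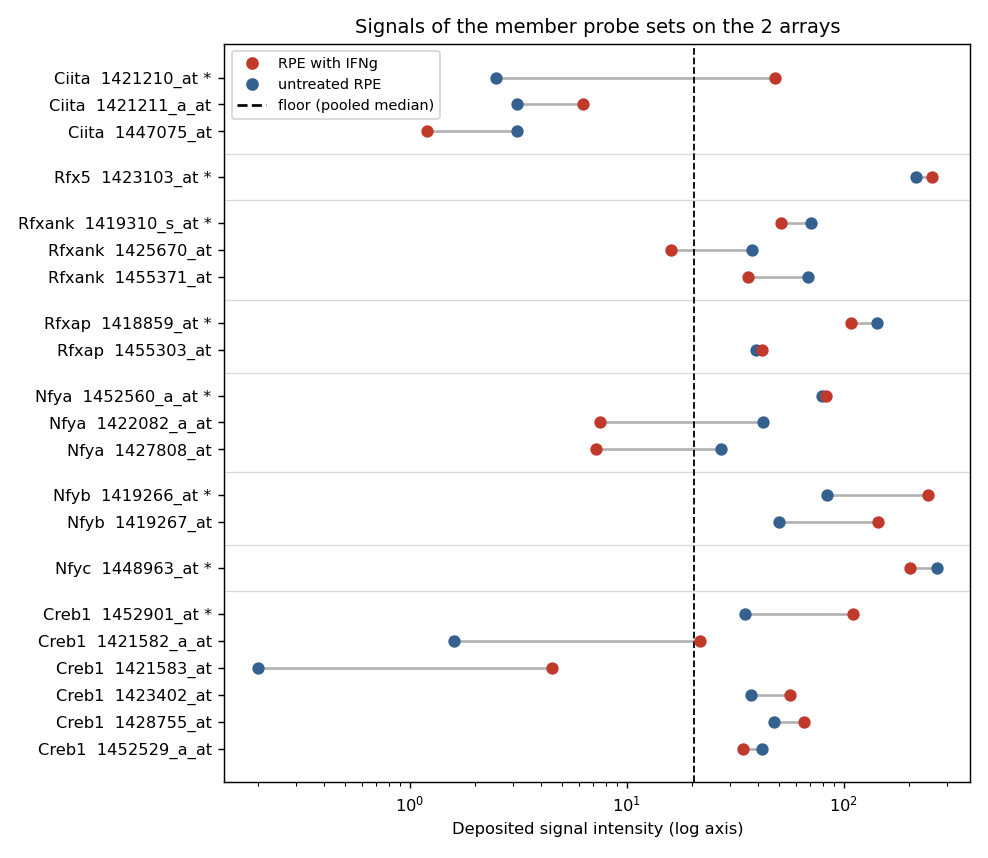
Deposited signal intensity (log axis) of the 21 probe sets of the 8 genes in RPE with IFNg (red) and untreated RPE (blue), 1 array each, with the brightest probe set of each gene marked by an asterisk and the floor of 20.4 as a dashed line. The 2 Nfyb probe sets and the brightest Creb1 probe set have wide gaps above the floor, while the gap of Ciita spans the floor and those of Rfx5, Rfxap and Nfyc are narrow.

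By their brightest probe sets, 3 of the 8 genes (Ciita, Nfyb and Creb1) passed 2-fold upward with IFNg, 0 passed it downward and 5 lay between. Among all measured genes, 8.82% passed 2-fold upward and 4.48% downward. The median log2 ratio of the 8 was 0.15. Taken as probe sets, 18 of the 21 were measured, of which 4 passed 2-fold upward, 1 passed it downward and 13 lay between. The shares among all such probe sets naming 1 gene were 9.36% and 4.69%. The count of 3 genes depended on the probe-set rule, the floor and the threshold. It was 1 of 8 (Nfyb) with probe sets averaged, those under the floor on both arrays counted as 0, against 4.64% of all measured genes. With the floor raised to the 75th percentile it was 1 of 5 measured members (Nfyb), against 7.39%. At a threshold of 3-fold it was 1 of 8 (Creb1), against 2.64%.

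**Figure D3:**
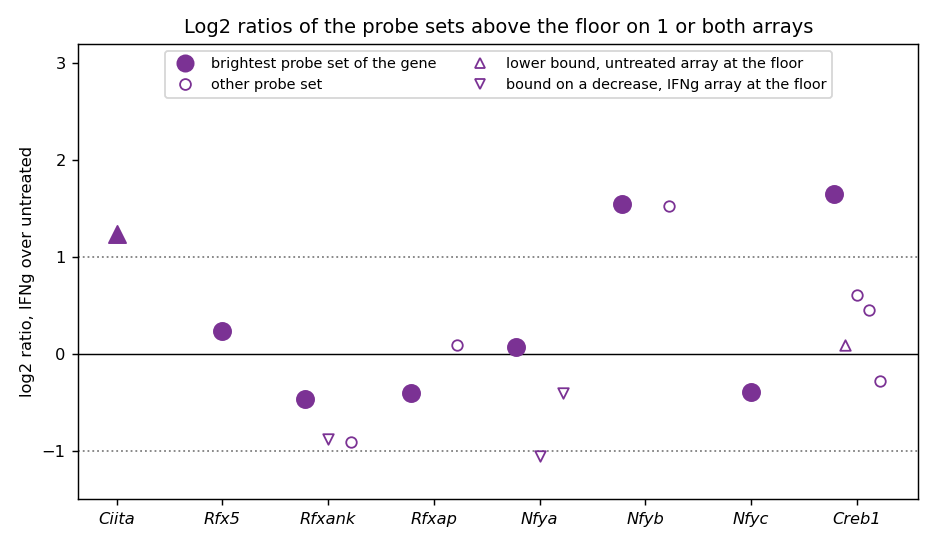
Log2 ratio of IFNg over untreated for the 18 measured probe sets, by gene, with dotted lines at 2-fold. The 2 Nfyb probe sets coincide near 1.5, those of Creb1 run between -0.28 and 1.65, and all 3 of Rfxank lie below 0.

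The genes that the complex switches on are the class II chains, their invariant chain and the peptide-editing chains. Of 10 listed, 9 matched a probe set naming them alone (H2-DMb1 did not), and 8 were measured. Of these 8, 6 passed 2-fold upward with IFNg and 0 downward, against 8.82% and 4.48% of all measured genes. Their median log2 ratio was 3.75 with bounds included, against -0.12 for all genes. The alpha chain gene H2-Aa had 1551.4 with IFNg and 2.2 untreated (log2 ratio at least 6.25), and Cd74, the invariant chain, had 2322 with IFNg and 34 untreated (6.09). H2-Eb1, a beta chain gene, had 756.7 with IFNg and 12.5 untreated (at least 5.21), and H2-Ab1, which encodes the beta chain partner of H2-Aa, had 622.2 with IFNg and 33 untreated (4.24). H2-DMa, the alpha chain gene of the peptide exchanger DM, had 646.2 with IFNg and 67.4 untreated (3.26). In these probe sets, H2-Aa and H2-Eb1 were under the floor untreated and the other 3 above it. A further H2-Ab1 probe set, of shared sequence, had 802 with IFNg and 11.7 untreated, a bound of at least 5.30, and the other measured H2-Aa probe sets gave bounds of 4.52 and 4.57. All measured H2-Aa probe sets, the brightest included, have IDs that mark shared sequence. Without probe sets of shared sequence, H2-Aa had no value and 4 of 7 measured class II genes passed 2-fold upward.

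The remaining class II genes were dim. H2-DMb2, a DM beta chain gene, had 56.4 with IFNg and 5.8 untreated in its brightest probe set, of shared sequence (at least 1.47). Its other 2 probe sets had -0.43 and a bound of -0.16. H2-Ob, of the DO heterodimer that restrains DM, had 23.7 with IFNg and 11.2 untreated (at least 0.22), and H2-Oa, its alpha chain, was under the floor at 13.5 with IFNg and 8.3 untreated. H2-Eb2 had 5.2 with IFNg and 27.1 untreated (at least 1.33-fold lower). The X and Y cores printed above thus stood both in windows of H2-Aa and H2-Eb1, which were at least 37.1-fold higher, and in those of H2-Ob and H2-Oa, whose signals near or under the floor leave the size of any difference unmeasured. They also stood in that of H2-Eb2, which was dim and on the lower side. H2-DMa, without such a pair in either window, was 9.59-fold higher. A relation between these letters and the ratios was not tested.

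Induction of Ciita by IFNg starts at the receptor and the Janus kinases, and the factors that act at the IFNg-responsive Ciita promoter include IRF1 and the E-box factor USF1. The 10 genes listed for this route also include Irf8 and Spi1, factors of myeloid cells. Of the 10, 6 passed 2-fold upward with IFNg and 0 downward, against 8.82% and 4.48% of all measured genes. Their median log2 ratio was 1.22. Irf1 had 3391.1 with IFNg and 319.1 untreated and was 10.6-fold higher. Irf8, an interferon regulatory factor of myeloid and B cells, was 30.4-fold higher at 987.7 with IFNg and 32.5 untreated. Jak2 was 5.31-fold higher at 314.8 with IFNg and 59.3 untreated, and Jak1 was 2.81-fold higher, with further probe sets between -0.06 and 1.05 on the log2 scale. Irf2, which can occupy the Ciita promoter together with IRF1, was 2.55-fold higher at 86.3 with IFNg and 33.9 untreated. Its only probe set is of shared sequence, and without such probe sets 5 of 9 route genes passed 2-fold upward. The count was 5 of 10 with probe sets averaged, and also with ratios corrected by a loess curve on mean log2 signal.

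The other genes of the route lay within 2-fold, apart from Spi1. Usf1 had 102.4 with IFNg and 92.1 untreated (log2 ratio 0.15), and Usf2 126.8 with IFNg and 145.4 untreated (-0.20). The receptor genes Ifngr1 (0.18) and Ifngr2 (-0.93) lay within 2-fold, although Ifngr2 passed 2-fold lower with a common 75th percentile. Spi1, the PU.1 factor of myeloid cells, had 43.3 with IFNg and 5 untreated and was at least 2.12-fold higher.

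Of 12 genes for enzymes and transcription factors that CIITA recruits, 3 passed 2-fold upward with IFNg and 0 downward. The shares of all measured genes were 8.82% and 4.48%. The median log2 ratio of the 12 was 0.10. Kat2b, the histone acetyltransferase PCAF, had 594.2 with IFNg and 209.6 untreated (2.83-fold higher) in a probe set of shared sequence. Its other measured probe set was at least 1.82-fold higher, and without probe sets of shared sequence the count was 2 of 11. Ccnt1, the cyclin of the elongation kinase P-TEFb, had 144.5 with IFNg and 39.8 untreated (3.63-fold higher), but its other probe set had a log2 ratio of 0.16. Taf1, of the TFIID complex, had 82.8 with IFNg and 32.3 untreated (2.56-fold higher). The acetyltransferase genes Crebbp (-0.38) and Ep300 (-0.04), the methyltransferase Carm1 (-0.65) and the remodelling ATPase Smarca4 (-0.32) lay within 2-fold. With probe sets averaged, 1 of the 12 passed 2-fold.

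Among 7 genes that repress Ciita or its induction, 6 were measured. Of these, 1 passed 2-fold upward and 0 downward, against 8.82% and 4.48% of all measured genes. The 1 was Socs1, the inhibitor of JAK kinases, with 244.3 with IFNg and 42.2 untreated (5.79-fold higher). Prdm1, the BLIMP1 repressor that shuts off Ciita in plasma cells, was under the floor at 2.7 with IFNg and 8.1 untreated. The histone deacetylases Hdac1 (log2 ratio -0.13) and Hdac2 (0.42), their scaffold Sin3a (0.42), the methyltransferase Ezh2 (0.29) and the DNA methyltransferase Dnmt1 (-0.50) lay within 2-fold by their brightest probe sets. Another Dnmt1 probe set, of shared sequence, was 2.34-fold lower, at 84.3 with IFNg and 197.4 untreated. The median of the 6 was 0.35.

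Relatives of the 8 genes were read beside them. Of 14 matched relatives, 11 were measured. Of these, 2 passed 2-fold upward and 0 downward, against 8.82% and 4.48% of all measured genes. Their median log2 ratio of -0.12 equalled that of all genes at this rounding. Nlrc5, the NLR relative of Ciita that activates class I genes through the same RFX proteins, had 457.4 with IFNg and 16.2 untreated (at least 22.4-fold higher). Crem, the closest CREB1 relative measured, had 130.9 with IFNg and 64.7 untreated (2.02-fold higher) and 1.15 on the log2 scale in its second measured probe set. With a common 75th percentile, quantile normalization, a pseudocount or the higher floor, 1 of the relatives passed 2-fold.

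The remaining relatives lay within 2-fold. Atf2 had a log2 ratio of 0.31, Atf4 0.09, Creb3 -0.12 and the membrane-bound Creb3l1 -0.90 and Creb3l2 -0.66. Of the other RFX genes, Rfx7 had 0.72 (1.49 in its dimmer probe set) and Rfx1 -0.21, while Rfx2 and Rfx4 were under the floor on both arrays. Ankra2, the paralog of Rfxank, had 94.4 with IFNg and 112.7 untreated (-0.26). Rfx6 and Atf1 were not covered by a probe set naming them alone.

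Class I genes carry related X and Y elements that NLRC5 uses. Of 5 listed, 4 passed 2-fold upward with IFNg, against 8.82% of all measured genes. Psmb9, an immunoproteasome subunit, was 36.6-fold higher. The peptide transporter Tap1 was 8.95-fold higher and the class I light chain B2m 2.45-fold, each with another measured probe set at a log2 ratio of 0.80. The heavy chain H2-K1 was 2.07-fold higher, with others between 1.22 and 2.56 on the log2 scale. The log2 ratio of H2-D1 was 0.88, with others between -0.48 and 2.07. With a common 75th percentile, or with probe sets averaged, 3 of the 5 passed 2-fold upward. H2-K1 and H2-D1 are near-identical paralogs, so which of them a probe set measures is uncertain.

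**Figure D4:**
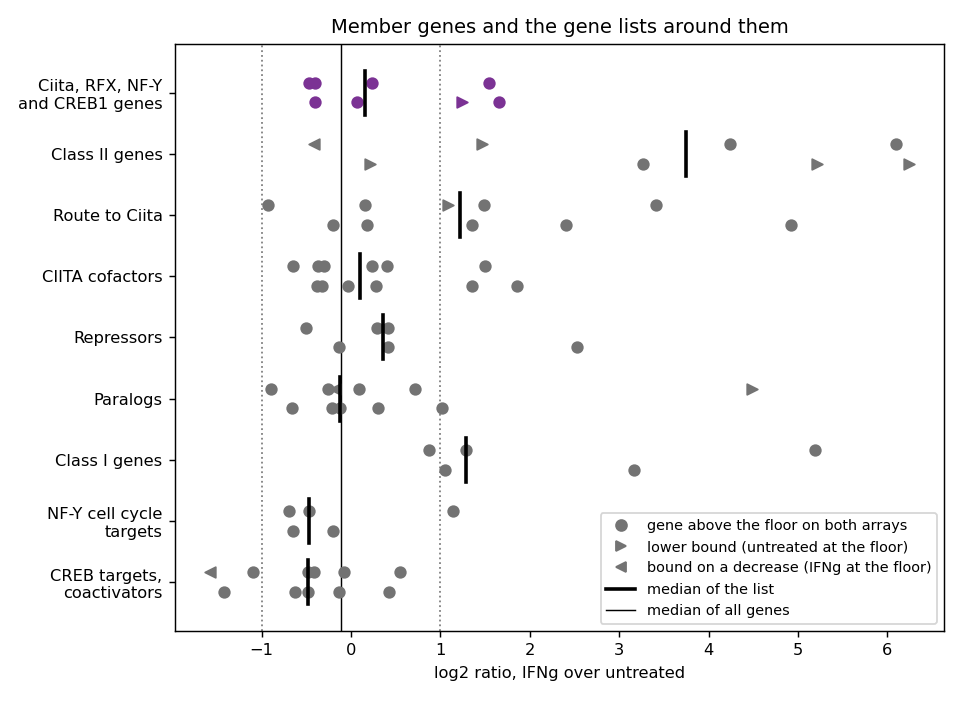
Log2 ratio of IFNg over untreated (x axis) for the 8 genes of the complex (purple) and for genes of 8 lists around them (grey), with list medians as thick bars, the median of all genes as a thin line and 2-fold as dotted lines. The class II, route and class I lists have medians of 3.75, 1.22 and 1.29, whereas the complex, at 0.15, and its cofactors, at 0.10, lie near the median of all genes.

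NF-Y and CREB1 also act far from the class II region, on G2/M cell cycle genes and on cyclic AMP-responsive genes. Of 5 matched NF-Y targets of the cell cycle (Ccnb1 was not covered), Top2a was 2.20-fold higher, at 339.7 with IFNg and 154.1 untreated, 0 passed 2-fold downward, and the median log2 ratio was -0.47 (0.11 with probe sets averaged). Cdk1 (-0.70) and Ccnb2 (-0.65) were on the lower side within 2-fold. Of 11 CREB targets and coactivators, 0 passed 2-fold upward and 3 downward, with a median of -0.48. For both lists, the shares of all measured genes were 8.82% upward and 4.48% downward. The nuclear receptor genes Nr4a1 (198.2 with IFNg and 529.3 untreated, 2.67-fold lower) and Nr4a2 (147.4 with IFNg and 316.6 untreated, 2.15-fold lower, other measured probe sets between -2.03 and 0.14 on the log2 scale) and the kinase gene Sik1 (13.4 with IFNg and 60.9 untreated, at least 2.99-fold lower) were the 3 lower CREB list genes. The coactivators Crtc1 (-0.48), Crtc2 (0.55) and Crtc3 (-0.48) and the immediate-early gene Fos (-0.14) lay within 2-fold. With probe sets averaged, 1 of the 11 was past 2-fold.

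Cell markers were read beside these values. Among 16 RPE markers, 12 were measured, of which 4 passed 2-fold downward with IFNg and 0 upward, against 4.48% and 8.82% of all measured genes. Their summed signals were 8063 with IFNg and 9617 untreated. The 4 were Ttr (log2 ratio -1.60), Tyrp1 (-1.29, other measured probe sets between -1.45 and 0.33), Rdh5 (-1.21) and Rlbp1 (-1.06). The brightest were Serpinf1 (3725.6 with IFNg and 5552.3 untreated) and Krt18 (2445.9 with IFNg and 1390.4 untreated). Tyr had 605.7 with IFNg and 986.1 untreated, Krt8 459.9 and 453.5, and Otx2 388.5 and 410.9. Under the floor on both arrays were Rpe65 (1.1 with IFNg and 5 untreated), Best1 (9.2 and 4.5), Rgr (2.3 and 16.8) and Dct (10.1 and 17.1). The 5 fibroblast genes were all above the floor, with summed signals of 32503 with IFNg and 38670 untreated. Some leukocytes express Ciita constitutively. Of 13 matched markers of these cells, 9 were measured, of which 0 passed 2-fold upward and 3 downward, beside the same shares of all genes. Their summed signals were 765 with IFNg and 1229 untreated. The 3 were Csf1r, the receptor of the macrophage growth factor (77.5 with IFNg and 202.8 untreated), Fcer1g (10.6 with IFNg and 46 untreated) and Laptm5 (8.7 with IFNg and 40.9 untreated). The myeloid genes Lyz2 (486.5 with IFNg and 660.8 untreated), Cd68 (87.6 with IFNg and 139.6 untreated) and Adgre1 (44.8 with IFNg and 51.3 untreated) were above the floor on both arrays. Leukocyte markers were thus detected in both cultures. Ptprc, the gene for CD45, had 7 with IFNg and 20.8 untreated, and the B cell genes Cd79a and Ms4a1 and the myeloid genes Itgam and Aif1 were under the floor on both arrays. Only Cd8a of 4 T cell genes was above the floor, at 22.6 with IFNg and 34.8 untreated. This was 1 of its 5 probe sets, of shared sequence and near the floor, and none of the others was measured. The part of other cell types in the Ciita signal was not tested.

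**Figure D5:**
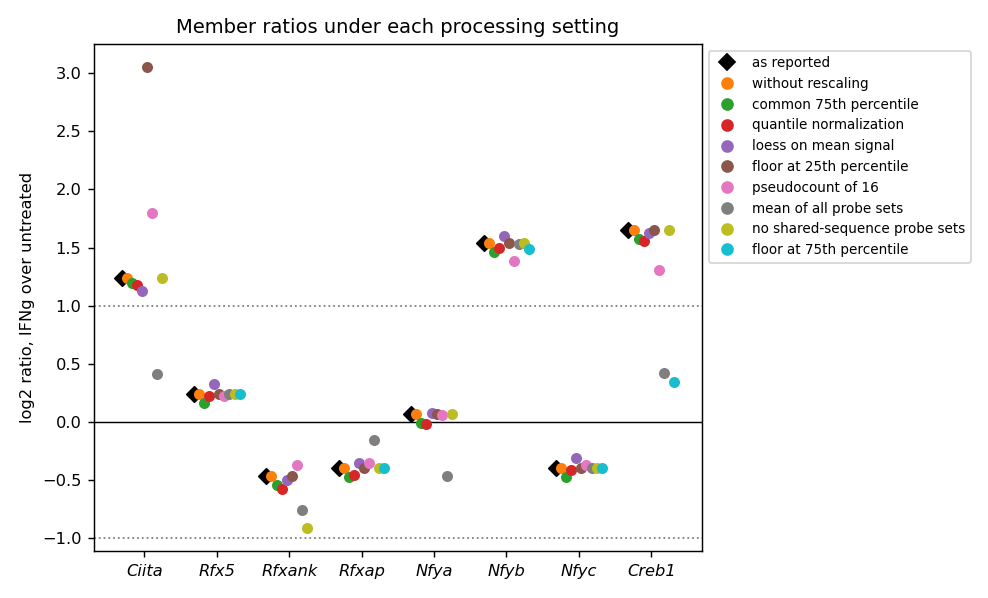
Log2 ratio of IFNg over untreated for each of the 8 genes as reported (black diamond) and under 9 further processing settings (coloured points), with dotted lines at 2-fold. Nfyb stays between 1.38 and 1.60, Ciita runs between 0.41 and 3.05 and Creb1 between 0.34 and 1.65. The 0.41 of Ciita averages its bound with its other probe sets, counted as 0 at the floor. No point is drawn where both arrays were at the floor.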

How the data were processed

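Biotin-labelled RNA amplified from each culture was read on 1 array with Affymetrix reagents, per the labels' protocols. Each probe set has 1 deposited intensity, not on a log scale, with the same trimmed mean on both arrays (99.6 after trimming 2% at each end). How the authors summarised and scaled the probe signals is not given in the sources used here. The 64 control probe sets were left out, arrays were scaled to a common trimmed mean, values under the pooled median of both arrays were raised to it, and log2 was taken. Each gene took its brightest probe set among those naming it alone in the platform annotation, in which 34945 probe sets name 1 gene, 932 several and 9160 none, and 0 symbols changed against the reference gene table of GRCm38.p6. That annotation can be old. No test was possible with 1 array per group, and a gene was counted at 2-fold only if measured, that is, above the floor on at least 1 array.

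The members and lists were chosen with earlier results of these data known, and 1 item of the route list is not reported here. Named genes were every member with all its probe sets, every class II gene, up to 4 genes past 2-fold in each direction of each further list and the 3 genes nearest to Ciita; other list members named, Irf2 and Spi1 among them, were chosen after their values were seen. Alternatives were 3 further scalings, no rescaling, a lower floor (25th percentile) and a higher floor (75th), a pseudocount of 16, averaging of probe sets, omission of probe sets with IDs for shared sequence, and thresholds of 1.5-fold and 3-fold. The calculations were checked on simulated arrays and ran in Python 3.11.15 with pandas 2.3.3, numpy 2.4.6, statsmodels 0.14.6 and scipy 1.17.1, and figures were drawn with matplotlib 3.10.9.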

Additional observations from a re-analysis of the deposited data

How the results depend on the processing

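Across 339 recomputed values, 300 kept their size within the spread between probe sets (log2 SD 0.44) or, for counts, within 1.5 times, 39 moved, and none past 2-fold changed sign. The 300 do not measure stability, because many values could not move. Floor and shared-sequence settings leave many genes untouched, and rescaling hardly alters arrays with nearly equal trimmed means. Counts were compared without regard to how many genes were measured. With the floor lowered to the 25th percentile, Ciita was at least 3.05 on the log2 scale, the class II median was 3.26 with 1 gene 2-fold lower, and 1 relative was 2-fold lower. At the 75th percentile, Creb1 was at least 0.34, the class II median was 3.21, and 1 member, 1 cofactor and 1 relative were 2-fold higher. Ciita, Rfxank and Nfya were at that floor on both arrays and gave no value. With a pseudocount of 16, Ciita was at 1.79, 1 class II gene was 2-fold lower and 1 relative 2-fold higher. With probe sets averaged, a probe set under the floor on both arrays counted as a ratio of 0. Ciita, with 1 of 3 probe sets measured, was then at 0.41, Creb1 at 0.42 and Nfya at -0.46. The class II median was 2.73 and the NF-Y target median 0.11. Under this averaging, 1 member, 1 cofactor and 0 NF-Y targets were 2-fold higher and 1 CREB target lower. Without probe sets of shared sequence, Rfxank was at -0.91, the class II median at 3.26 and the class I median at 2.61, with 2 NF-Y targets higher. With a common 75th percentile, 1 relative was 2-fold higher and 1 route gene lower, and with quantile normalization 1 relative was higher. At 3-fold, 1 member, 1 cofactor, 3 route genes, 2 class I genes, 1 relative and 0 NF-Y targets were higher and 0 CREB targets lower. At 1.5-fold, 1 cofactor, 1 route gene, 2 NF-Y targets and 2 relatives were lower. Over all measured genes, 1124 were higher and 571 lower (8.82% and 4.48%). With the floor at the 25th percentile these were 2258 and 2059 (13.6% and 12.4%), and at the 75th 574 and 163 (7.39% and 2.1%). They were 591 and 357 with probe sets averaged (4.64% and 2.8%). At 1.5-fold they were 2287 and 2381 (17.9% and 18.7%), and at 3-fold 336 and 59 (2.64% and 0.463%). The list counts are to be read beside these shares. The causes were not tested beyond what each setting changes. No paired analysis was possible because each group has 1 array. Signals near the floor hold an unknown share of background, which limits Ciita and other genes at the floor untreated.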
